A study of Mus musculus with 27 samples.

Results

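The genes described here encode the translation initiation and elongation factors of mouse liver. They were chosen by name: gene names starting with Eif1 to Eif6, Eef1 or Eef2 were taken, the eIF2 kinases (Eif2ak), the eIF4E-binding proteins (Eif4ebp) and named pseudogenes were left out, and a value of at least 10 was required in at least 3 of the 27 libraries. Of 58 rows with such names 54 met the value rule, out of 45706 genes listed and 15932 tested. Just inside the rule stood Eif5a2, with 9 to 35 normalised read counts per library. Just outside it stood Eef1a2, the muscle and nerve form of the tRNA-carrying factor, which had 83 in caged food 240 min replicate 3 and 10 or less in the other libraries. Eif3j2 reached 10 in a single library, and Eif4e1b and Eif2c5 were listed at 0.

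Polyadenylated RNA from whole livers of wild-type mice (strain label C57/BLN6) was sequenced in 9 groups of 3 libraries, and every mouse had first gone without food for 16 h. Of these groups 4 were then refed for 30, 60, 120 or 240 min, 4 were given caged food for the same times, which in this study the mice could sense and not eat, and 1 was kept as the fasted control. The labels gave no age or sex, and they did not say that replicates were paired. They gave the fasted group no time, so in comparisons with it the treatment and the time passed cannot be told apart. Values are read counts per gene that had been scaled between libraries, by a method not given in the sources used here, and rounded; their totals differed between libraries. In whole liver, fewer cells of a type and less RNA per cell cannot be told apart.

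Protein synthesis starts when the eIF2 complex brings the initiator tRNA to the small ribosomal subunit, eIF3 holds that assembly together, and the eIF4 proteins recruit it to the cap of the mRNA and unwind the leader. eIF2B recharges eIF2 with GTP after each round, and phosphorylation of the eIF2 alpha subunit blocks that step. During elongation, eEF1A delivers charged tRNAs and eEF2 moves the ribosome along the mRNA, and the kinase eEF2K switches eEF2 off. The liver makes most plasma proteins, and its protein synthesis is known to respond to feeding through mTORC1, which acts on the eIF4E-binding proteins and on S6 kinase.

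Depth was estimated at 25.6 to 52.4 M reads per library (median 47.0), and 1 read was worth 0.776 to 1.69 normalised counts. The treatment label of 2 libraries of 240 min named the other group than the title, and libraries were grouped by title. On a score over 200 genes outside the factors, signed towards refeeding, the refed 240 min replicates scored 0.769, 0.571 and 0.496, and the caged food 240 min replicates −0.639, −0.611 and −0.587, so each of the 2 libraries (refed replicate 3 and caged food replicate 1) lay with its title. Some libraries stood apart from the rest. Refed 30 min replicate 1 held transcripts of 8 of 10 pancreas acinar markers, with a summed value of 5964 against 311 to 680 in the other 26 libraries, and Prss1 and Amy2a5 were at 0. On the second principal component of all genes 5 libraries lay lowest: caged food replicate 2 of 60 min at −35.9 and replicate 1 of 30 min at −35.7, refed replicates 1 and 2 of 30 min at −22.6 and −20.1, and caged food replicate 3 of 120 min at −15.5. Of these, refed 30 min replicate 2 was not among the libraries left out as standing apart. All 6 hepatocyte markers were present in each group.

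Stretches of promoters are printed for members whose transcripts rose (Eif4a1, Eif4e, Eif4g1, Eif1b, Eif3a, Eef2k) or fell (Eef2, Eif1, Eef1a1) in refed livers at 240 min and that hold a known promoter motif. Capitals mark the E-box CACGTG, which is its own reverse complement and the site of bHLH leucine zipper factors, or a match to TATANAA. These are the letters of the TATA box, searched on both strands and at any place in the window. These sequences are from RefSeq on build GRCm38.p6, written 5′ to 3′ on the strand of the gene, and positions count from the annotated start site.
Eif4a1 (chr11:69672577-69672642, minus strand): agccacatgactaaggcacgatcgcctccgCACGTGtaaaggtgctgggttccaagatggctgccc
Eif4e (chr3:138527018-138527239, plus strand): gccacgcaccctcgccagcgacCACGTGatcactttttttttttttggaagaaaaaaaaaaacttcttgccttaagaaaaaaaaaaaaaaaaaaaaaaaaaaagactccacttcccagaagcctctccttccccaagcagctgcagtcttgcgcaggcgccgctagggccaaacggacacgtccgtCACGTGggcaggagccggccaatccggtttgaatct
Eif4g1 (chr16:20672643-20672708, plus strand): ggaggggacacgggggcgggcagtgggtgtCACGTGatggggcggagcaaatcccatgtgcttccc
Eif1b (chr9:120492552-120492605, plus strand): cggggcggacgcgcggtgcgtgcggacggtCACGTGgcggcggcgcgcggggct
Eif3a (chr19:60790654-60790683, minus strand): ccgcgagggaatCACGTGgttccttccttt
Eef2k (chr7:120842770-120842830, plus strand): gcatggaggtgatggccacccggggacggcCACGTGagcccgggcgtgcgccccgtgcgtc
Eef2 (chr10:81176558-81176630, plus strand): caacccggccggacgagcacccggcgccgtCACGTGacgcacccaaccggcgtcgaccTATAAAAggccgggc
Eif1 (chr11:100319945-100319973, plus strand): acaggggcggcTATATAAgtgaatacagg
Eef1a1 (chr9:78481684-78481712, minus strand): ggggagaacggTATATAAgtgcggcagtc

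Promoter windows of 250 bases before to 50 after a start site were at hand for 44 of the 54 members. CACGTG was found in 12 of these 44 genes (27.3%), against 1248 of the 11169 tested genes with a window (11.2%) and 7.15% of all 32841 windows. Among members with a window, it stood in 6 of 15 that rose in refed against fasted livers at 240 min, in 1 of 4 that fell and in 5 of 25 that were not called. TATANAA was found in 5 of 44 members (11.4%), against 7.07% of the tested genes and 11.4% of all windows. It stood in 3 of the 4 members that fell (Eif1, Eef1a1, Eef2), in 0 of 15 that rose and in 2 of 25 that were not called. The cAMP response element TGACGTCA was in 1 of 44 members (2.27%; Eef2, 3 bases past the start), against 3.45% of the tested genes and 1.79% of all windows. The amino acid response motif TGATGCAA was in 0 members, against 0.815% of the tested genes and 0.895% of all windows. The E-box of Eef2 begins at −43 and its TATANAA match at −15, and the E-boxes of Eif4e begin at −228 and −64. The TATANAA matches of Eif1 and Eef1a1 begin at 8 and 24. Both lie past the annotated start site and not before it, so they are not shown to be TATA boxes. The match of Eef2 is not shown to be one either. The printed E-box of Eif3a begins at 23, likewise past the annotated start site. The motifs were chosen after the values of the members were known, and a match describes letters and not binding.

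Levels per length spanned a wide range among the factors. Per kb of exon, Eef2 averaged 22400 normalised counts over the 27 libraries and Eef1a1 14400, which placed them above 99.5% and 99.2% of all genes tested. Behind these elongation factors came Eif5a, the hypusine-bearing factor that helps ribosomes past difficult peptide bonds, at 4195, and Eif4g1, the scaffold of the cap complex, at 4160. The subunits of eIF3 ranged between 1853 (Eif3h) and 54.6 (Eif3j1) per kb, and those of eIF2B between 939 (Eif2b5) and 78.9 (Eif2b3). Eif2s3x and Eif2s3y, the X and Y copies of the eIF2 gamma subunit, averaged 34.0 and 551 per kb. The copies are nearly identical, so the split of reads between them is uncertain, as it is for Eif1a and Eif1ax, for Eif3j1 and Eif3j2, and for Eif4a1, Eef1a1 and Eif5a with their pseudogenes. Together the 54 genes took a median of 0.681% of the normalised total in refed libraries of 30 min and 0.741% in those of 60 to 240 min, against 0.724% in caged food and 0.734% in fasted libraries.

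**Figure D1:**
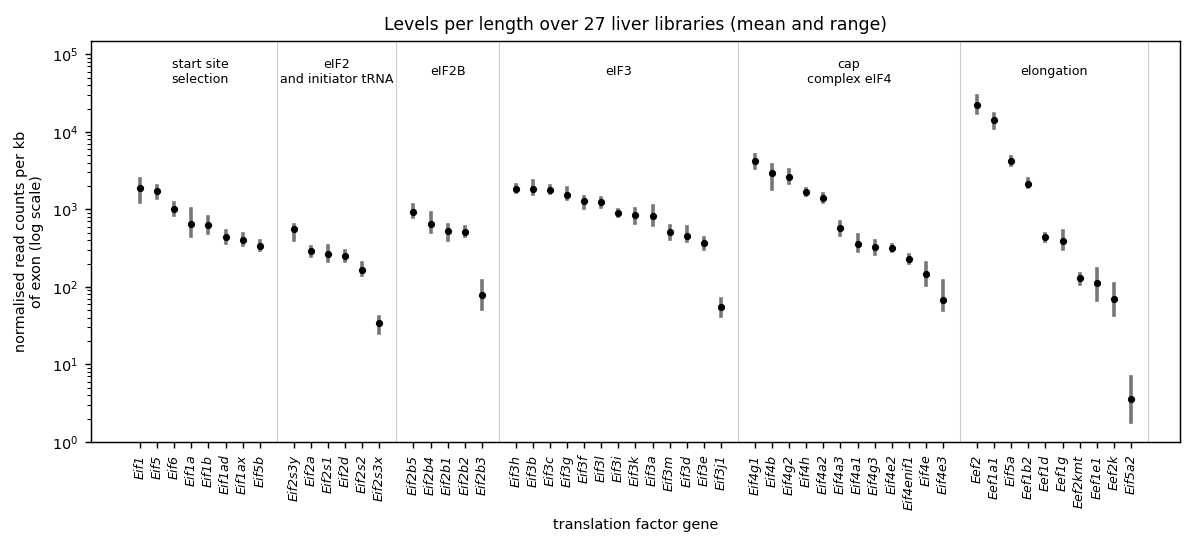
Level of each of the 54 factor transcripts per kb of exon (log scale), by role. Points are means over the 27 libraries and bars run from the lowest to the highest library; Eef2 and Eef1a1 stand above all other factors at 22400 and 14400 per kb, and Eif5a2 is lowest at 3.57.

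More factor transcripts were called against fasted livers at the later refed times, and at most of these times more rose than fell. Calls required an adjusted p under 0.05 (limma, Benjamini-Hochberg over 15932 genes). Against fasted livers, 1 of 54 members was called at 30 min, where 1.63% of all genes were, 10 at 60 min (11% of all genes), 16 at 120 min (14.1%) and 23 at 240 min (24.3%). The call at 30 min was a rise, as were those of 1.31% of all genes, while 0.326% fell. At 60 min 8 members rose and 2 fell, against 7.26% and 3.75% of all genes. At 120 min 14 rose and 2 fell, against 7.95% and 6.13%, and at 240 min 19 rose and 4 fell, against 12.9% and 11.4%. As shares of the members these counts were 1.85%, 18.5%, 29.6% and 42.6%. The median log2 difference of all 54 members was −0.08, 0.01, 0.06 and 0.11 at the 4 times, and that of all tested genes was −0.0013, −0.016, −0.00051 and 0.0048. Across all 9 groups, 25 of 54 members differed (limma F test), against 34.8% of all genes.

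These counts at 240 min rest on the grouping by title. With the 2 libraries of conflicting labels left out, 22 members were called in refed against fasted and 19 in refed against caged food livers at 240 min. With them moved to the group of their treatment label, both counts were 0, and those at 60 and 120 min against fasted livers were 2 and 3.

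**Figure D2:**
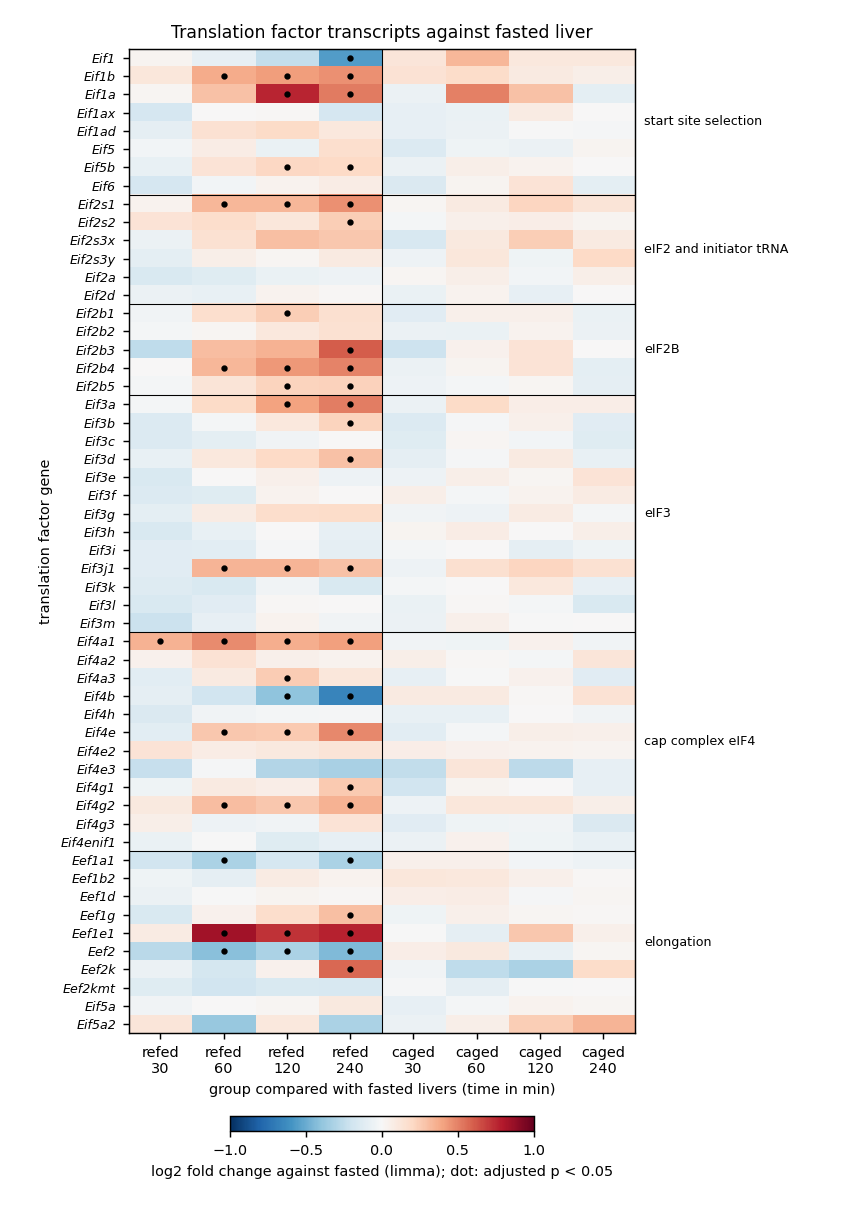
Log2 fold change of each factor transcript in refed (left) and caged food livers (right) over the same fasted livers at 4 times, grouped by role; dots mark an adjusted p under 0.05 in limma. Called members are in the refed columns, 1, 10, 16 and 23 of 54 with time, and the caged food columns hold 0.

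Transcripts of 4 factors fell in refed livers: Eif4b, Eif1, Eef2 and Eef1a1. They include the 2 factors of highest level. Eif4b, which stimulates the helicase that unwinds mRNA leaders, had 9034, 8085 and 9374 normalised counts in refed livers at 240 min, against 15393, 15760 and 14986 in caged food livers and 14287, 12913 and 14558 in fasted livers. Each refed library lay below each library of both other groups. The log2 fold change was −0.66 ± 0.09 (SE) against fasted (limma adjusted p = 6.44e-06) and −0.80 ± 0.09 against caged food livers (adjusted p = 3.63e-07). At 120 min Eif4b had 9786, 11593 and 10315 counts in refed livers, against 13997, 14011 and 14010 in caged food livers (−0.41, limma adjusted p = 0.00253). At 30 min the refed libraries, with 13146, 13277 and 12763, were not called against either group. At 60 min Eif4b fell against caged food livers (−0.29, limma adjusted p = 0.0313), a call that was lost without refed replicate 1 or 2 (0.167 and 0.0515) or caged food replicate 1 or 3 (0.174 and 0.0738).

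Eif1, which keeps the scanning ribosome from starting at wrong codons, fell late. Its counts were 2643, 2862 and 2630 in refed livers at 240 min, against 4385, 4236 and 4292 in caged food livers and 4059, 4033 and 3892 in fasted livers. No refed library reached the lowest library of the other groups. The log2 fold changes were −0.56 ± 0.09 against fasted (limma adjusted p = 5.38e-05) and −0.67 ± 0.09 against caged food livers (adjusted p = 5.18e-06). Against caged food it was also lower at 60 min (−0.41, limma adjusted p = 0.00298), where the refed libraries had 3735, 3583 and 4041 and the caged food libraries 5215, 4659 and 5220. At 120 min it was lower by 0.35 on the log2 scale against caged food (limma adjusted p = 0.0105, or 0.0729 without refed replicate 3). Against fasted livers Eif1 was not called at 60 min (−0.08, limma adjusted p = 0.674) or 120 min (−0.24, 0.0713). Caged food livers at 60 min stood 0.33 above fasted ones, which was not called (limma adjusted p = 0.131).

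Eef2, the translocase of the ribosome, fell early and stayed low. It had 60358, 64842 and 57920 counts in refed livers at 60 min and 60912, 59768 and 60162 at 240 min, against 79766, 79614 and 85762 in fasted livers. The groups did not overlap at either time, and at 30 min the refed libraries (65320, 67935 and 70110) already lay below the fasted ones without passing the threshold (limma adjusted p = 0.150). Log2 fold changes against fasted were −0.42 ± 0.09 at 60 min (limma adjusted p = 0.00208), −0.32 at 120 min (0.0162) and −0.44 at 240 min (0.000686). The call at 120 min was lost without fasted replicate 3 (limma adjusted p = 0.0787) or refed replicate 1 (0.0575).

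Eef1a1, which carries charged tRNAs to the ribosome, had 31019, 30947 and 30862 counts in refed livers at 240 min, against 38111, 38004 and 35418 in caged food livers and 37194, 37128 and 41302 in fasted livers. The refed libraries were the lowest of the 3 groups. Eef1a1 fell by 0.32 on the log2 scale against fasted (limma adjusted p = 0.00408) and by 0.26 against caged food livers (adjusted p = 0.0127, or 0.0516 without caged food replicate 1 and 0.0887 without both libraries of conflicting labels). At 60 min it fell by 0.32 against fasted (limma adjusted p = 0.00784), a call lost without fasted replicate 3 (0.0645) or refed replicate 3 (0.0685). At 120 min it was not called against fasted (−0.17, limma adjusted p = 0.150) or caged food livers (−0.14, 0.282). Eef1a1, Eef2 and Eif4b are known mRNAs of the terminal oligopyrimidine class, whose translation depends on mTORC1. The other factors were not sorted by that class, so these 3 do not show how its members among the factors moved. Ribosomal protein mRNAs are the main members of that class, and of 83 such transcripts tested 8 rose and 1 fell in refed against fasted livers at 240 min, with a median log2 difference of 0.04, where 12.9% of all genes rose and 11.4% fell.

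**Figure D3:**
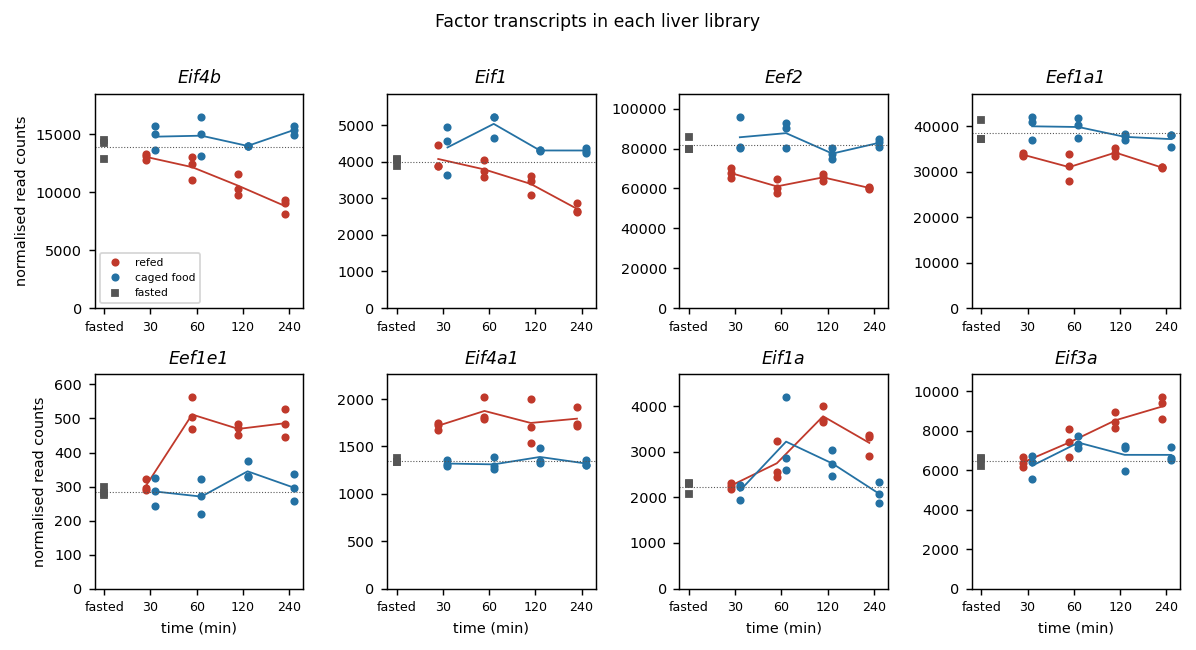
Normalised read counts of 8 factor transcripts in each of the 27 libraries by time (categories, not to scale), with lines through group means and a dotted line at the fasted mean. In the upper row the refed libraries lie below the caged food and fasted libraries by 240 min, and in the lower row they lie above them.

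Among the eIF4 genes, transcripts of the helicase Eif4a1, the cap-binding protein Eif4e, the scaffold Eif4g1 and its relative Eif4g2 rose. Eif4a1, the helicase of the complex, was the earliest. It had 1676, 1729 and 1750 counts in refed livers at 30 min, against 1289, 1358 and 1310 in caged food livers and 1333, 1337 and 1376 in fasted livers. The refed libraries lay above all others of the 3 groups. Eif4a1 rose by a log2 of 0.35 ± 0.08 against fasted (limma adjusted p = 0.0158) and 0.38 ± 0.08 against caged food livers (0.0280), and it was the single member called in either comparison. Of all genes 1.63% were called in the first and 0.276% in the second. The summed value of 7 markers of dividing cells, all present, was 298 to 1114 in refed livers at 30 min, against 236 to 478 in caged food and 119 to 188 in fasted livers. It lay above the fasted range, and its part in the result was not tested. Both calls were close to the threshold: against fasted the adjusted p was 0.0597, 0.0706 and 0.0642 without fasted replicates 1, 2 and 3 and 0.0864 and 0.0622 without refed replicates 2 and 3, and against caged food it was 0.0556 to 0.157 without any one of the 6 libraries. At 60 min Eif4a1 had 2017, 1812 and 1794 counts in refed livers, against 1258, 1290 and 1383 in caged food livers, a log2 fold change of 0.52 ± 0.08 (limma adjusted p = 7.43e-05). Its paralogue Eif4a2 was not called at any time, and Eif4a3, the helicase of the exon junction complex, rose at 120 min (0.25, limma adjusted p = 0.0473, lost without any one of the 6 libraries compared, 0.0512 to 0.158).

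Eif4e, which binds the mRNA cap, had 1223, 1008 and 1172 counts in refed livers at 240 min, against 833, 778 and 905 in caged food livers and 789, 805 and 837 in fasted livers. The lowest refed library lay above the highest of the others. Its log2 fold change was 0.48 ± 0.09 against fasted (limma adjusted p = 0.000234) and 0.43 ± 0.09 against caged food livers (0.000562). The rises at 60 and 120 min against fasted were 0.27 and 0.26 (limma adjusted p = 0.0456 and 0.0462) and were lost without any one library of the groups compared (0.0592 to 0.131 and 0.0711 to 0.129). Neither Eif4e2, a cap-binding relative tied to repression, nor Eif4e3 was called.

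Eif4g1 had 36288, 36591 and 34719 counts in refed livers at 240 min, against 28283, 28666 and 27683 in caged food and 29346, 31112 and 29382 in fasted livers, with no overlap. It rose by 0.26 ± 0.07 on the log2 scale against fasted (limma adjusted p = 0.0122) and by 0.35 ± 0.07 against caged food livers (0.00117). Eif4g2, a scaffold that lacks the site for eIF4E, had 30297, 28669 and 31536 counts in refed livers at 60 min, against 24968, 23641 and 24278 in fasted livers. All refed libraries were higher, and the log2 fold change against fasted was 0.31 ± 0.07 at 60 min (limma adjusted p = 0.00524) and 0.35 ± 0.07 at 240 min (0.00096). Against caged food livers Eif4g2 was not called at 60 min (0.20, limma adjusted p = 0.082) or 120 min (0.15, 0.196), and it rose by 0.29 at 240 min (0.00401). Eif4g3, Eif4h and the transporter Eif4enif1 were not called in any comparison of 2 groups.

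Among the factors that select the start codon, Eif1a and Eif1b rose while Eif1 fell. Eif1a, which holds the initiator tRNA in the scanning ribosome, had 3649, 4002 and 3695 counts in refed livers at 120 min, against 3032, 2470 and 2736 in caged food livers and 2301, 2324 and 2074 in fasted livers. The 3 groups did not overlap, with the caged food libraries in between. Against fasted livers Eif1a rose by a log2 of 0.76 ± 0.13 at 120 min (limma adjusted p = 0.000335) and 0.52 ± 0.13 at 240 min (0.00582). Against caged food livers it rose by 0.47 at 120 min (limma adjusted p = 0.0232), lost without refed replicates 2 or 3 (0.094 and 0.0528) or caged food replicates 2 or 3 (0.114 and 0.0578), and by 0.62 at 240 min (0.00118). Its X-linked paralogue Eif1ax was not called, at −0.165 to 0.0082 against fasted over the 4 refed times.

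Eif1b, a close relative of Eif1, had 911, 883 and 751 counts in refed livers at 240 min, against 641, 555 and 660 in fasted livers. It rose by 0.37, 0.42 and 0.45 on the log2 scale at 60, 120 and 240 min (limma adjusted p = 0.0169, 0.00616 and 0.00175). These comparisons were with fasted livers, and the first 2 calls were lost without fasted replicate 2 (0.118 and 0.0519), the lowest fasted library. Against caged food livers Eif1b was not called at 60 min (0.185, limma adjusted p = 0.275), and it rose by 0.33 at 120 min and 0.39 at 240 min (0.0353 and 0.00493). The call at 120 min against caged food did not hold with each library left out. Eif5b, the GTPase that joins the ribosomal subunits, rose by 0.21 at 120 min and 0.20 at 240 min (limma adjusted p = 0.0182 and 0.0155), calls lost without fasted replicate 2 (0.081 and 0.0662), refed 120 min replicate 2 (0.0819) or refed 240 min replicate 1 (0.0966). Eif5, which triggers GTP hydrolysis on eIF2, Eif6, which keeps free large subunits apart, and Eif1ad were not called in any comparison of 2 groups, while Eif1ad was among the 25 members of the F test over all 9 groups (limma adjusted p = 0.0348).

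The called changes among eIF2 subunits were all rises. Eif2s1 encodes the alpha subunit, whose phosphorylation blocks initiation. It had 1653, 1574 and 1529 counts in refed livers at 240 min, against 1204, 1252 and 1320 in caged food livers and 1130, 1104 and 1226 in fasted livers, without overlap. Eif2s1 rose by 0.33, 0.34 and 0.46 on the log2 scale against fasted at 60, 120 and 240 min (limma adjusted p = 0.005, 0.00413 and 0.000113), and these calls held with each library left out in turn. Against caged food livers it was not called at 120 min (0.12, limma adjusted p = 0.367). Caged food livers of that time stood 0.21 above fasted ones, also not called (0.449). At 60 and 240 min Eif2s1 rose against caged food by 0.24 and 0.33 (limma adjusted p = 0.0426 and 0.00224), and the first call did not hold with each library left out. Eif2s2, the beta subunit, rose at 240 min (0.25, limma adjusted p = 0.0251) although the lowest refed library (1077) lay below the highest fasted one (1082), and the call was lost without fasted replicate 2 (0.111) or refed replicates 1 or 2 (0.17 and 0.0903). Eif2s3x, Eif2s3y, Eif2a and Eif2d were not called.

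eIF2B, the exchange factor of eIF2, is made of 5 subunits. All 5 rose in refed against caged food livers at 240 min, where 14.6% of all genes did, and 0 of 5 were called at 30, 60 or 120 min. Against fasted livers 1 of 5 rose at 60 min, 3 at 120 min and 3 at 240 min, against 7.26%, 7.95% and 12.9% of all genes. The call at 60 min against fasted was Eif2b4 (0.33, limma adjusted p = 0.0319), lost without fasted replicates 1, 2 or 3 (0.105, 0.0622 and 0.085) or refed replicate 1 (0.226). Eif2b4, the delta subunit, had 2299, 2126 and 2037 counts in refed livers at 240 min, against 1425, 1439 and 1421 in caged food and 1471, 1577 and 1531 in fasted livers. That was a log2 fold change of 0.59 ± 0.10 against caged food (limma adjusted p = 0.000108) and 0.50 ± 0.10 against fasted livers (0.00076). Eif2b3, the gamma subunit, had 768, 651 and 723 counts, against 429, 459 and 525 in caged food and 413, 494 and 501 in fasted livers, a log2 fold change of 0.60 ± 0.12 against caged food (limma adjusted p = 0.000694) and 0.61 ± 0.12 against fasted livers (0.000736). In both genes every refed library exceeded every other library of these groups. Eif2b5, with the catalytic subunit, rose by 0.32 against caged food and 0.23 against fasted livers (limma adjusted p = 0.00162 and 0.0188), the second lost without fasted replicates 1 or 2 (0.0724 and 0.0668) or refed replicate 1 (0.124). For Eif2b1 and Eif2b2 the rises against caged food were 0.22 and 0.22 (limma adjusted p = 0.0304 and 0.0482), and without both libraries of conflicting labels neither was called (0.0971 and 0.111).

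Of the 13 eIF3 genes 4 rose in refed against fasted livers at 240 min and 0 fell, where 12.9% of all genes rose and 11.4% fell. Eif3a, the largest subunit, had 9396, 8588 and 9694 counts in refed livers, against 6528, 6610 and 7199 in caged food and 6589, 6625 and 6199 in fasted livers, with no overlap. It rose by 0.40 ± 0.08 on the log2 scale against fasted at 120 min and by 0.51 ± 0.08 at 240 min (limma adjusted p = 0.0022 and 0.000103). Against caged food livers the rise was 0.34 at 120 min (limma adjusted p = 0.0104, or 0.0596 without refed replicate 2 and 0.0881 without caged food replicate 2) and 0.44 at 240 min (0.000378). Eif3b and Eif3d, a core scaffold and a cap-binding subunit, rose by 0.34 and 0.37 against caged food livers at 240 min (limma adjusted p = 0.00192 and 0.00298). Against fasted livers they rose by 0.22 and 0.30 (limma adjusted p = 0.037 and 0.017). Those calls were lost without fasted replicate 1 (0.145 for Eif3b and 0.0505 for Eif3d), fasted replicate 2 (0.0807 and 0.0524) or refed replicate 1 (0.179 and 0.12). Eif3b was also lost without refed replicate 2 (0.0811). Eif3j1, a loosely bound subunit, rose by 0.34, 0.34 and 0.30 against fasted livers at 60, 120 and 240 min (limma adjusted p = 0.0248, 0.0217 and 0.031), calls that were lost without fasted replicate 1 (0.082, 0.0752 and 0.0952) or 3 (0.0761, 0.0625 and 0.0772). They were also lost without refed 60 min replicates 1 or 3 (0.14 and 0.108), refed 120 min replicate 2 (0.119) or any one refed 240 min library (0.0659 to 0.0762). Against caged food livers Eif3j1 was not called at 60, 120 or 240 min (0.18, 0.13 and 0.15, limma adjusted p = 0.28, 0.491 and 0.299). Caged food livers of these times stood 0.16, 0.22 and 0.15 above fasted ones, without a call. The other 9 (Eif3c, Eif3e, Eif3f, Eif3g, Eif3h, Eif3i, Eif3k, Eif3l and Eif3m) were not called in any comparison of 2 groups.

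The elongation genes moved in both directions. Eef1e1, named as an elongation factor subunit and known as a part of the multi-tRNA synthetase complex, showed the largest rise at 60 and 240 min among the members called. Its counts were 562, 469 and 504 in refed livers at 60 min, against 321, 219 and 271 in caged food livers and 300, 280 and 274 in fasted livers. The lowest refed library stood well above the highest of the others. Eef1e1 rose by 0.84 ± 0.13 on the log2 scale against fasted (limma adjusted p = 8.26e-05) and by 0.93 ± 0.13 against caged food livers at 60 min (2.57e-05). It stayed up at 120 min (473, 484 and 451; 0.72, adjusted p = 0.00039) and 240 min (527, 447 and 484; 0.77, adjusted p = 0.000101) against fasted livers in the same limma fit. Against caged food at 120 min (328, 330 and 376) the rise was 0.45 (limma adjusted p = 0.0232), lost without refed replicates 1 or 2 (0.0594 and 0.0824) or caged food replicates 1 or 2 (0.0839 and 0.0828).

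Eef2k, the kinase that inactivates eEF2, had 698, 813 and 741 counts in refed livers at 240 min, against 636, 547 and 538 in caged food and 479, 580 and 459 in fasted livers. It rose by 0.57 ± 0.17 against fasted (limma adjusted p = 0.0155), a call lost without fasted replicates 1 or 3 (0.0546 and 0.0695) or refed replicate 2 (0.0614), and at 0.39 it was not called against caged food (0.0944). Eef1g, a subunit of the eEF1 exchange complex, rose by 0.30 against fasted livers at 240 min (limma adjusted p = 0.0302), lost without fasted replicates 2 or 3 (0.144 and 0.0533) or refed replicates 1 or 2 (0.203 and 0.0576). Its partners Eef1b2 and Eef1d, the methyltransferase Eef2kmt, and Eif5a and Eif5a2 were not called at any time.

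Caged food was followed by no called change in any of the 54 transcripts at 30, 60, 120 or 240 min (limma), against 0.0126%, 0.22%, 0.0377% and 0% of all genes. At an unadjusted p under 0.05 stood 1, 3, 4 and 1 members of 54, against 7.05%, 9.85%, 7.70% and 4.72% of all genes. The largest difference was that of Eif1a at 60 min, with 2606, 4196 and 2873 counts in caged food livers against 2301, 2324 and 2074 in fasted livers (0.50, limma adjusted p = 0.131). The highest of these libraries, replicate 2, also had a summed value of 25210 over 6 Kupffer cell markers and 2405 over 10 leukocyte markers, against 8980 to 16512 and 487 to 1113 in all other libraries. Their part in the result was not tested. Without that library and the others standing apart, Eif1a differed by 0.295 (limma adjusted p = 0.351) and Eif1 was called, 0.39 ± 0.07 higher in caged food livers (0.0377, or 0.131 with all libraries). At 240 min the 95% interval of the difference between caged food and fasted livers ran from −0.03 to 0.32 for Eif4b, from −0.16 to 0.20 for Eef2 and from −0.21 to 0.31 for Eef1e1, on the log2 scale. The refed and caged food comparisons share the fasted libraries.

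Set directly against caged food livers, refed livers differed in 1 of 54 members at 30 min (0.276% of all genes), in 8 at 60 min (10.9%), in 7 at 120 min (11.3%) and in 23 at 240 min (27%). The call at 30 min was a rise, against rises of 0.207% and falls of 0.069% of all genes. At 60 min 4 members rose and 4 fell, against 6.73% and 4.18% of all genes, at 120 min 5 rose and 2 fell, against 5.98% and 5.3%, and at 240 min 19 rose and 4 fell, against 14.6% and 12.4%. The members called at 60 min were Eef1e1, Eif4a1, Eif4e and Eif2s1 upward and Eef2, Eef1a1, Eif1 and Eif4b downward. Those at 120 min were Eif1a, Eef1e1, Eif3a, Eif1b and Eif4a1 upward and Eif4b and Eif1 downward. Of the 23 calls at 240 min 17 held with each library of the 2 groups left out in turn, and the 6 that did not were Eef1a1, Eef1g, Eif2b1, Eif2b2, Eif2s2 and Eif5b. Of the 7 at 120 min 1 held, Eif4b, and of the 8 at 60 min 5 did (Eef1e1, Eif4a1, Eef2, Eef1a1, Eif1). The size of the refed to caged food contrast depended on the time in 5 members (limma F test), Eif4b, Eef1e1, Eif1a, Eif1 and Eif3a, or 9.26% of the 54, against 9.97% of all genes.

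**Figure D4:**
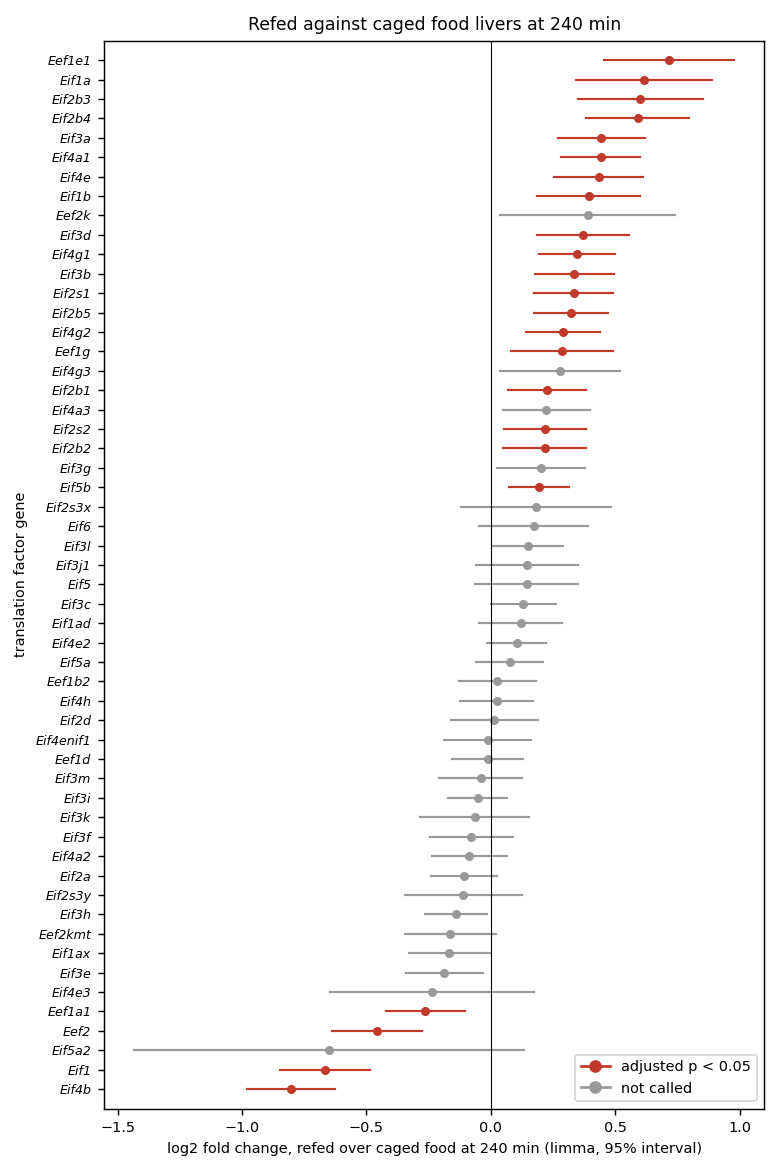
Log2 fold change of the 54 factor transcripts in refed over caged food livers at 240 min, with 95% intervals from limma; red marks an adjusted p under 0.05. The 19 members that rose are led by Eef1e1 (0.72) and Eif1a (0.62), and the 4 that fell are Eif4b (−0.80), Eif1 (−0.67), Eef2 (−0.46) and Eef1a1 (−0.26).

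Transcripts of proteins that regulate these factors moved as well. Eif4ebp1 and Eif4ebp2 encode the repressors that hold eIF4E until mTORC1 phosphorylates them. Eif4ebp1 had 1054, 1420 and 1084 counts in refed livers at 240 min, against 1774, 1657 and 1667 in caged food and 1710, 1698 and 1794 in fasted livers. It fell by 0.56 ± 0.09 on the log2 scale against fasted (limma adjusted p = 7.85e-05) and by 0.53 ± 0.09 against caged food livers (0.000118), with no overlap. Eif4ebp2, with 3773, 3923 and 3879 against 4842, 5211 and 4803 in caged food and 5001, 4861 and 4766 in fasted livers, fell by 0.36 against caged food (limma adjusted p = 0.00297) and by 0.34 against fasted livers (0.00551). Eif4ebp3 varied widely within groups (SE 0.48) and was not called.

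The 4 kinases of eIF2 went different ways. Eif2ak1, the haem-regulated kinase, had 1913, 1975 and 2061 counts in refed livers at 240 min, against 2726, 2864 and 2661 in caged food and 2998, 2578 and 2956 in fasted livers. It fell by 0.52 ± 0.07 on the log2 scale against fasted livers (limma adjusted p = 8.26e-06). Eif2ak2, the kinase of double-stranded RNA, rose by 0.72 ± 0.11, with 2338, 1549 and 1789 against 1018, 1025 and 1109 in caged food and 1151, 1197 and 1046 in fasted livers (limma adjusted p = 2.92e-05 against fasted). Eif2ak3, the kinase of the endoplasmic reticulum, peaked at 120 min with 1176, 1576 and 1320 counts in refed livers, against 786, 798 and 831 in caged food and 628, 765 and 734 in fasted livers (0.93 ± 0.14, limma adjusted p = 7.19e-05 against fasted). Eif2ak4, the amino acid sensor GCN2, was not called. Ppp1r15a, a subunit of the phosphatase that reactivates eIF2, fell by 0.42 against fasted at 240 min (limma adjusted p = 0.0178). Against caged food livers it was not called at 240 min (−0.27, 0.126), and it was called lower at 60 min (−0.52, limma adjusted p = 0.00818). Ppp1r15b was not called.

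**Figure D5:**
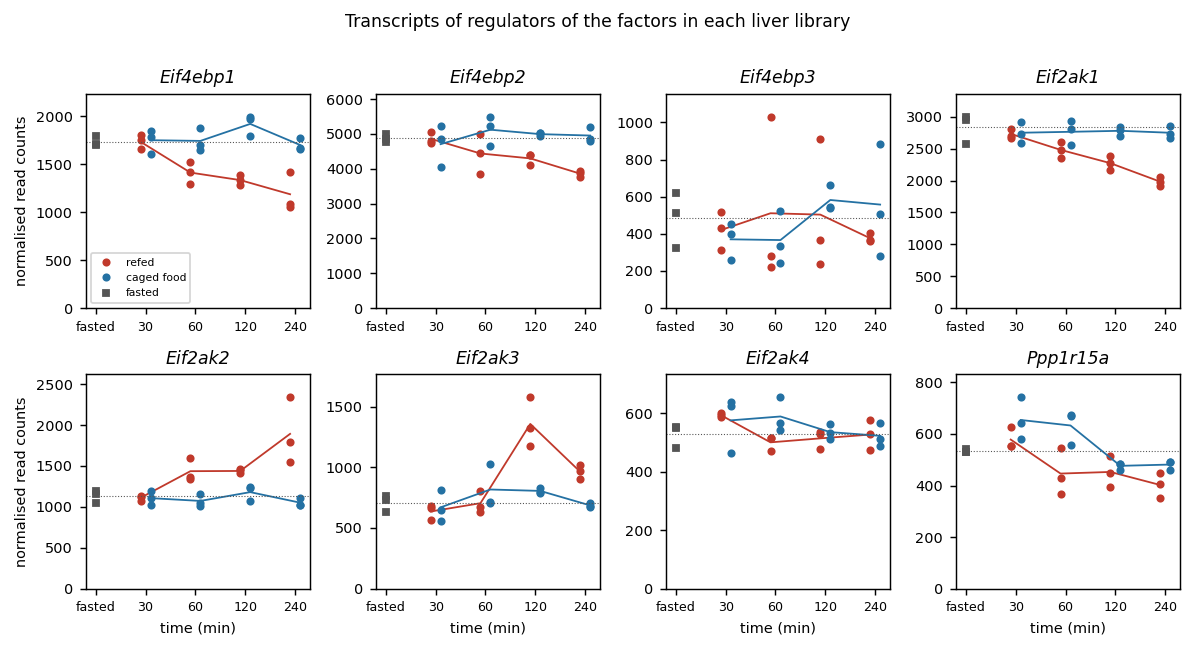
Normalised read counts of 8 regulators of the factors in each library by time (categories, not to scale), with lines through group means and a dotted line at the fasted mean. Refed libraries lie lowest at 240 min for Eif4ebp1, Eif4ebp2 and Eif2ak1 and highest for Eif2ak2 and Eif2ak3, while Eif4ebp3 and Eif2ak4 show no called difference.

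Other parts of the translation machinery were counted in the same comparisons, in which 12.9% of all genes rose and 11.4% fell against fasted livers at 240 min, and 14.6% rose and 12.4% fell against caged food livers. Of 22 genes of cytosolic aminoacyl-tRNA synthetases and their scaffold proteins, which charge tRNAs, 11 rose and 0 fell in refed against fasted livers at 240 min, and 16 rose and 0 fell against caged food livers, with medians of 0.26 and 0.40 on the log2 scale against 0.0048 and −0.0045 for all genes. Wars, the tryptophan enzyme, had 1615, 1613 and 1334 counts in refed livers, against 764, 782 and 839 in caged food and 819, 928 and 871 in fasted livers (0.80 ± 0.10, limma adjusted p = 4.2e-06 against fasted). Of 9 genes that modify eEF2 with diphthamide or eIF5A with hypusine 4 rose and 0 fell against fasted livers, among them Dph2 (0.54, limma adjusted p = 0.00257). Of 11 termination and rescue genes 4 rose and 2 fell, and the rises included Pelo, which frees stalled ribosomes (1.02, limma adjusted p = 1.81e-06), and Gspt1, the release factor eRF3 (0.48, 2.18e-05). Of 11 mitochondrial translation factors 2 rose and 0 fell, and of 6 genes of poly(A)-binding proteins and partners 0 were called. Of 14 genes of mTORC1 and S6 kinase 3 rose and 2 fell, of 11 other initiation helpers 3 rose and 0 fell, and of 12 eIF4E-binding proteins and related regulators 2 rose and 4 fell. Abce1 was counted both among the initiation helpers and among the termination and rescue genes.

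Cell type markers were read in the same libraries. Over 6 sinusoidal endothelial markers, all present, the summed value was 13833 to 14452 in refed livers at 240 min, against 15838 to 16486 in caged food and 15713 to 17613 in fasted livers. The sums of 6 Kupffer cell markers were 11526 to 13086 in refed, 9504 to 16330 in caged food and 9905 to 12481 in fasted livers, and those of 6 hepatocyte markers were 3237120 to 4426414 in refed, 4231561 to 4442678 in caged food and 4237709 to 4925863 in fasted livers. Over 6 stellate cell markers, all present, the sum was 10137 to 13378 in refed livers, against 13991 to 15768 in caged food and 13807 to 14946 in fasted livers. The endothelial and stellate sums were lower in refed livers at 240 min with no overlap, and their part in the changes of the factors was not tested.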

How the data were processed

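Stranded mRNA libraries of 27 mouse livers were analysed. Per the submitters' processing notes, reads were aligned with STAR 2.4.0a to mm10 (GRCm38) and counted with featureCounts 1.4.5-p1 of Subread. The deposited table holds a score per gene, namely whole-number read counts after a library scaling by the authors whose method is not given in the sources used here. Depth was estimated from the spacing of low values. Of 45706 identifiers 45143 (98.8%) matched GENCODE M21, which gave exon lengths.

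The test covered 15932 genes that reached 10 in 3 or more libraries, on log2(value + 1), so that folds of low genes are understated, with limma 3.58.1 (mean-variance trend, R 4.3.3) over the 9 group means of all 27 libraries. There were 12 contrasts of 2 groups and 2 F tests, adjusted by Benjamini-Hochberg within each, with calls under 0.05. P-values rest on the spread between libraries pooled over all 9 groups of 3 and moderated towards the trend (18 residual and 5.03 prior degrees of freedom). They do not measure the spread of the 2 groups compared alone. The fit was tested on simulated data of refed 120 min against fasted livers, with changed genes drawn from those with a fasted mean of 10 or more. In the simulation 200 genes were changed and 15460 tested, whereas 2243 of 15932 genes were called in the real comparison. The shares called in it therefore need not hold for the factors. Of 50 genes changed 1.25-fold it called 10 (20%), and of 50 changed 1.5-fold 31 (62%). At 2-fold and 4-fold it called 40 and 45 of 50. A gene that was not called may therefore still have changed by a small fold. Python 3.11.15, numpy 2.4.6, pandas 2.3.3 and matplotlib 3.10.9 were used.

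Members, gene lists and motifs were chosen with earlier results of these data known. All members may be named; counts of each library are given for up to 4 called members of lowest p per direction and comparison and for members of highest level, and for regulators named in the text; those of other called members were added after their values were seen. Samples beyond these 27 of the 60 in the design text were not analysed here. As alternatives, values were fitted with a replicate block, with a pseudocount of 5, after quantile normalization, without the filter, in fits of only the groups compared, with each library left out, and the 2 libraries of conflicting labels left out or moved. Leaving out libraries that stand apart, leaving out the 3 shallowest, and quality weights were added after seeing the data.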

Additional observations from a re-analysis of the deposited data

Results flagged for a closer look

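In 5 factor transcripts the refed to caged food contrast changed over time, by the limma F test of 3 contrasts between times. That is 9.26% of the 54 members, against 9.97% of all genes, so the count lay near the share of all genes. For Eif4b the adjusted p was 0.0063: the log2 difference of refed from caged food livers was −0.18 at 30 min, −0.29 at 60 min, −0.41 at 120 min and −0.80 at 240 min. It was above the threshold without the 3 shallowest libraries (0.0657), which are all of 240 min and whose removal leaves 1 caged food library there, the one of conflicting labels, taken to vary like the other groups. For Eef1e1 it was 0.0142, with differences of 0.09, 0.93, 0.45 and 0.72, and 0.0544 without the libraries standing apart. For Eif1a it was 0.0153, with differences of 0.07, −0.21, 0.47 and 0.62. For Eif1 it was 0.0234, with differences of −0.10, −0.41, −0.35 and −0.67. It was above the threshold without refed 30 min replicate 1 (0.0641), refed 240 min replicate 1 (0.0611) or caged food 240 min replicate 1 (0.0568). For Eif3a it was 0.0287, with differences of 0.04, −0.0025, 0.34 and 0.44. It was above the threshold without refed 30 min replicate 1 (0.0513), refed 240 min replicates 1 or 3 (0.0652 and 0.0547) or caged food 240 min replicates 1 or 2 (0.066 and 0.0567). Without both libraries of conflicting labels Eif1 and Eif3a were not called (0.092 and 0.102), nor without the libraries standing apart (0.0573 and 0.0561) or the same 3 shallowest (0.144 and 0.112). With those 2 libraries of conflicting labels moved to the group of their treatment label, none of the 5 was called, at an adjusted p of 0.397 to 0.955.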

How the results depend on the processing

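Of 89 calls of a member in a comparison of 2 groups, none changed sign under any alternative, 6 were called under each of them and 83 were lost under 1 or more. Most of these losses came with 1 alternative, the move of the 2 libraries of conflicting labels. With each library left out in turn, 15 of 23 calls held in refed against fasted livers at 240 min and 7 of 16 at 120 min. In refed against caged food livers 17 of 23 held at 240 min and 1 of 7 at 120 min. Moving the 2 libraries of conflicting labels to the group of their treatment label left 0, 2, 3 and 0 members called in refed against fasted livers at 30, 60, 120 and 240 min, 0, 4, 0 and 0 in refed against caged food livers, 7 in the F test over all groups and 0 in that over time; the cause was not tested. A fit of only the groups compared gave 5 in refed 60 min against fasted and 0, 2 and 4 in refed against caged food at 30, 60 and 120 min, with fewer samples to estimate the spread. Quantile normalization gave 6 in refed 60 min against fasted livers. Leaving out the libraries standing apart gave 0 in both comparisons of refed livers at 30 min and 1 (Eif1) in caged food 60 min against fasted; leaving out the 3 shallowest, all of 240 min, which leaves 1 caged food library there, gave 0 in refed against caged food at 30 min and 2 in the F test over time. Quality weights gave 2 in refed 30 min against fasted, 12 in refed against caged food at 120 min and 11 in the F test over time, and leaving out both libraries of conflicting labels gave 3 there.

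With each library left out in turn, 0 to 1, 6 to 9, 9 to 12 and 16 to 22 members were called against fasted at the 4 refed times, 0 to 0 at each caged food time, 0 to 0, 5 to 9, 3 to 6 and 17 to 23 in refed against caged food, 22 to 28 in the F test over all groups and 3 to 8 in that over time. Moved by over 1.5 times were refed 60 min against fasted without fasted replicate 3 (6), refed 120 min against fasted without fasted replicate 2 (9), refed against caged food at 60 min without refed replicate 1 (5) and at 120 min without refed replicates 1 (4) or 2 (3) or caged food replicate 2 (3), and the F test over time without replicate 1 of refed 30 min, refed 240 min or caged food 240 min (3 each) or of refed 60 min or caged food 30 min (8 each).

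Replicate numbers did not pair the libraries: the mean correlation of residuals over 108 pairs of equal number was −0.00944, and 8 of 27 libraries were closest to their own number. With a replicate block 1, 9, 13 and 23 members were called against fasted and 1, 8, 7 and 21 against caged food at the 4 refed times. Depth limits Eif5a2, at 9 to 35 counts, most.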
